A study of Mus musculus with 8 samples.

Results

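Conventional CD4 T cells of the brain in chronic experimental autoimmune encephalomyelitis (EAE), at day 50 after immunization, were set against those of the brain in acute disease, at day 14. EAE is an induced autoimmune disease of the central nervous system used as a model of multiple sclerosis. All cells came from mice of the Foxp3-Cre-YFP genotype, in which a yellow fluorescent reporter marks regulatory T cells, and the sort kept reporter-negative, CD44+, TCRβ+, CD11b- cells from brain freed of its meninges. Spinal cord cells of the same days complete the series. The day 50 group was 1 brain library and the day 14 group was 1 brain library. Cells were the barcodes with 500 or more detected genes and at most 10% of their UMIs (unique molecular identifiers, counted transcripts) from mitochondrial genes. That kept 348 of 372 deposited barcodes at day 50 and 10313 of 10742 at day 14, together 10661 of the 21551 kept cells of the series. The number of mice behind each library, their age and sex, and the immunizing antigen are not given in the labels used here.

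CD4 T cells that reach the central nervous system are restimulated there by cells that present myelin antigens. Signals through the T cell receptor switch on immediate-early genes within minutes, then cytokines such as interleukin 17 from Th17 cells or interferon-gamma from Th1 cells. Memory T cells that stay in a tissue, called tissue-resident, keep surface proteins such as CD69 and CXCR6 and hold back receptors for exit such as S1PR1. The series asks what such resident cells do in chronic disease, and the brain comparison addresses how the T cells found there late differ from those found early.

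The kept cells held 1177903 UMIs at day 50 and 47272714 at day 14, with a median of 3014.5 and 4004 UMIs per cell and of 1096 and 1353 genes. A single UMI was thus worth 0.849 CPM (counts per 1e6 UMIs of the library) at day 50 and 0.0212 CPM at day 14, and 3 UMIs were taken as the floor, 2.55 and 0.0635 CPM. The T cell markers summed to 6597 CPM at day 50 and 6862 CPM at day 14, and 348 of 348 and 10310 of 10313 cells held at least 1 of them. Foxp3 had 0 and 2 UMIs, and the day 50 cells held no Cd8a. Markers of antigen-presenting cells summed to 114 CPM at day 50 and 14.9 CPM at day 14, and 125 of the 134 such UMIs at day 50 lay in 1 barcode. Microglia markers stood at 14.4 and 26.8 CPM, oligodendrocyte markers at 45.8 and 50.4 CPM, and neuron, astrocyte and plasma cell markers were at 0 at day 50. The brain libraries shared no cell barcode with each other. With 1 library a day, no spread between mice could be had and no test across mice was possible. Day and library cannot be told apart, and every interval below covers counting error only, for reads that may not all be independent molecules.

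A ratio is the CPM at day 50 over the CPM at day 14, on the log2 scale, with its exact conditional binomial 95% interval. A gene with a mean of 10 CPM or more was called higher or lower where the ratio was at least 1.5-fold and its interval excluded equality. Of 6414 genes compared, 388 (6.05%) were higher and 558 (8.7%) lower at day 50. The median log2 ratio of all compared genes was -0.11, and subtracting it turned the split to 558 higher and 343 lower. Scaling without ribosomal protein genes gave 553 higher and 493 lower, so which direction had more calls depended on the scaling. At least 2-fold, 130 genes were higher and 141 lower. Without the antigen-presenting barcode 382 were higher and 563 lower. The 2 libraries also differ in depth, so shares of cells with a UMI are given after each cell was thinned to 2000 UMIs, which kept 250 cells at day 50 and 9150 at day 14 and left out 98 and 1163 shallower ones. The sort held no cell type that should lack T cell genes, so the part of a share that free RNA gives was not tested.

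**Figure D1:**
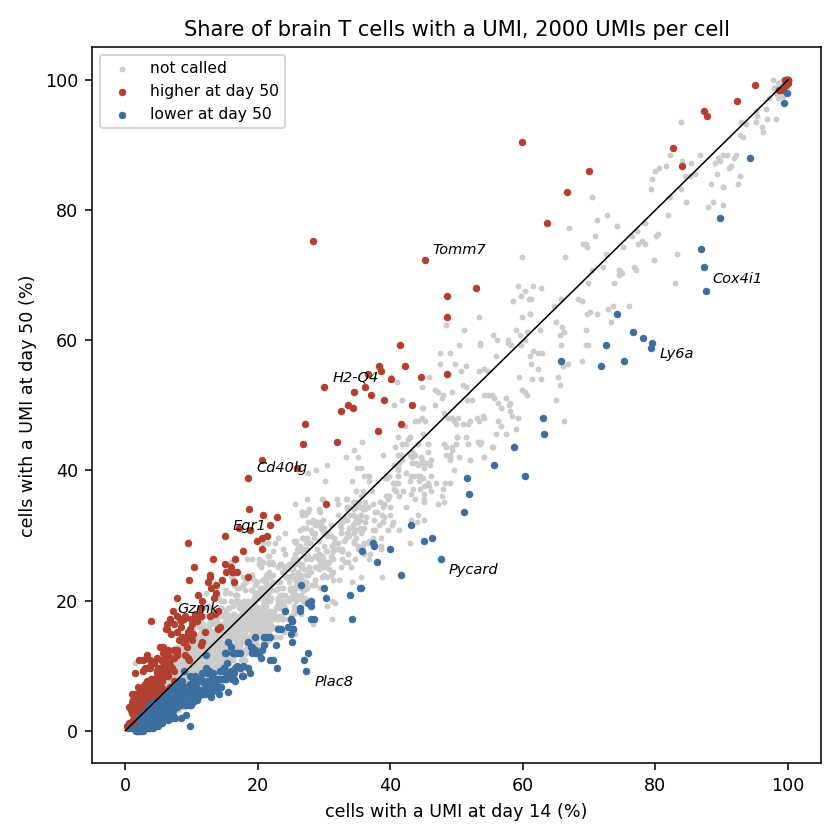
Share of brain T cells with at least 1 UMI of a gene at day 50 (vertical axis, %) against day 14 (horizontal axis, %), after thinning every cell to 2000 UMIs. Each point is 1 of the 6414 compared genes, coloured by its CPM call, and the line marks equal shares. Tomm7 lies far above the line at 72.4% and 45.2%, and Pycard and Plac8 lie far below it.

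**Figure D2:**
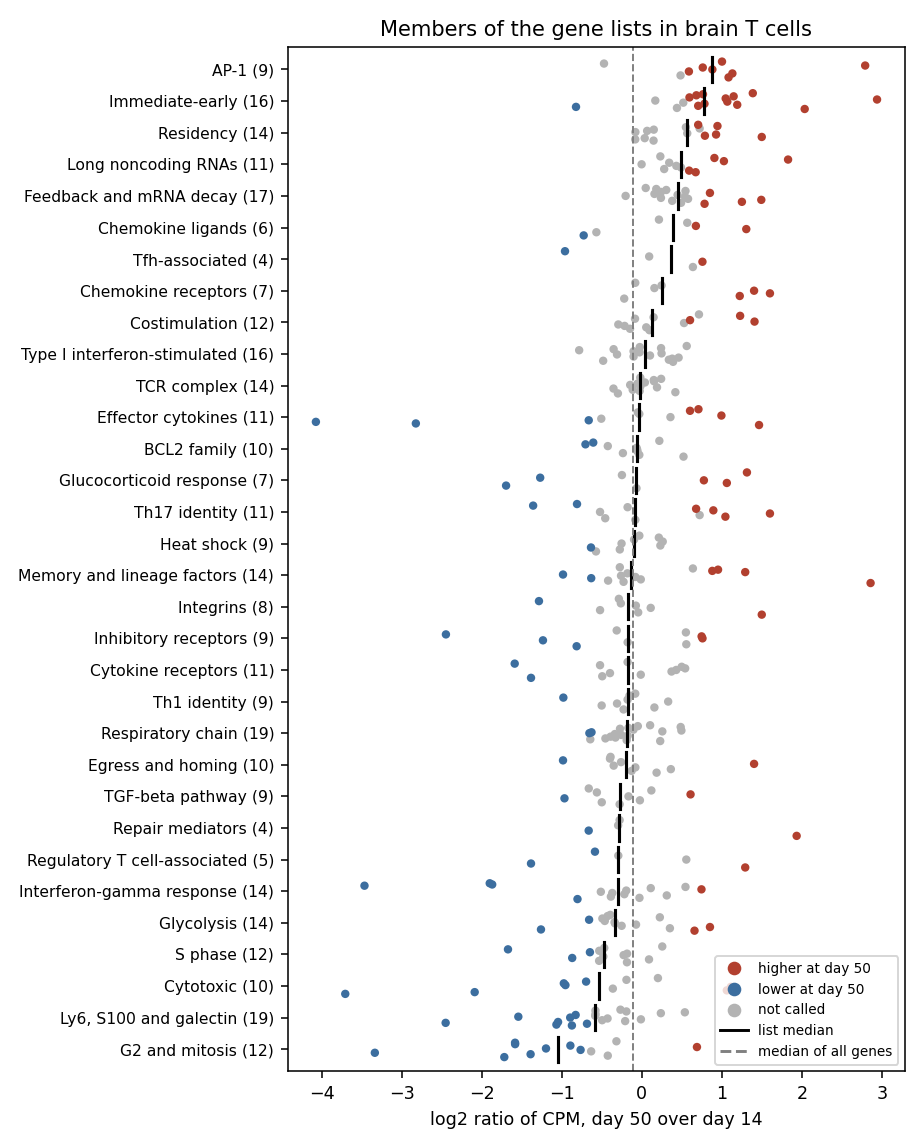
Log2 ratio of CPM, day 50 over day 14 (horizontal axis), for the compared members of 32 gene lists, with the number compared in brackets. Points are genes coloured by call, black ticks are list medians and the dashed line is the all-gene median of -0.11. The AP-1 list has the highest median, 0.88, and the G2 and mitosis list the lowest at this floor of 10 CPM, -1.05.

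The list with the highest median ratio was that of the AP-1 genes, followed by the immediate-early genes. What set the level of these transcripts was not tested, and day and library cannot be told apart. Most AP-1 genes, which encode the paired DNA-binding proteins of the Fos, Jun, ATF and Maf families, were higher at day 50, and so were the Nr4a nuclear receptors, Egr1 and the growth-restraining Btg genes. Of 9 AP-1 genes compared 7 were higher and 0 lower (median log2 ratio 0.88), and of 16 immediate-early genes 12 were higher and 1 lower (median 0.77), beside 6.05% higher and 8.7% lower among all genes. Fosl1 and Batf3, with 1 UMI each at day 50, were under the floor for comparison. The range within the group was wide, and the best-expressed members were not those with the largest ratios. Over the alternatives tried, between 6 and 8 AP-1 genes and between 8 and 13 immediate-early genes were higher, and at most 1 of each was lower.

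Fos (chr12:85473890-85477274), the namesake of the Fos family, had 975 CPM at day 50, against 459.9 CPM at day 14 (log2 ratio 1.08, 1.0 to 1.17). Atf3 (chr1:191170296-191183333), a stress-inducible partner, had 94.2 CPM at day 50, against 13.6 CPM at day 14 (log2 ratio 2.79, 2.49 to 3.09). Both lie on the mm10 build, named GRCm38.p6 in the annotation used. Junb, the partner best expressed in these cells, stood at 5024 CPM at day 50, against 2728 CPM at day 14 (log2 ratio 0.88, 0.84 to 0.92). Jund stood at 1919.5 CPM at day 50, against 1133 CPM at day 14, Jun at 609.6 CPM at day 50, against 406 CPM at day 14, Fosl2 at 79.8 CPM at day 50, against 36.4 CPM at day 14 and the small Maf protein gene Maff at 38.2 CPM at day 50, against 19.1 CPM at day 14. All 4 were called higher, at log2 ratios of 0.76, 0.59, 1.13 and 1.0. Fosb, at 209 CPM at day 50, against 149 CPM at day 14 (log2 ratio 0.48, 0.29 to 0.67), did not reach 1.5-fold. Batf, the AP-1 factor needed for Th17 differentiation, was at 63.7 CPM at day 50, against 88.5 CPM at day 14 (log2 ratio -0.47, -0.82 to -0.15) and was not called.

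Among the other immediate-early genes, Egr1, a zinc finger factor downstream of MAP kinases, had 434 CPM at day 50, against 106 CPM at day 14 (log2 ratio 2.04, 1.9 to 2.17). Its relatives did not follow it, since Egr2 had 13.6 CPM at day 50, against 10 CPM at day 14 (log2 ratio 0.44, -0.38 to 1.15) and was not called, and Egr3 was lower, at 10.2 CPM at day 50, against 18 CPM at day 14 (log2 ratio -0.82, -1.78 to -0.01) with 12 UMIs at day 50. No immediate-early gene was lower with the all-gene median subtracted, ribosomal protein genes out of the sum or cells thinned before summing. The Egr3 call thus did not hold there, nor with equal weight per cell or with Scrublet calls left out. Ier5l had 71.3 CPM at day 50, against 9.29 CPM at day 14 (log2 ratio 2.94, 2.59 to 3.28), while Ier5 at 0.17 and Ier2 at 0.52 were not called. Vps37b, a sorting protein gene induced in stimulated T cells, had 261 CPM at day 50, against 99.7 CPM at day 14 (log2 ratio 1.39, 1.22 to 1.55). The nuclear receptor genes Nr4a1, Nr4a2 and Nr4a3, induced by T cell receptor signals, had ratios of 0.7, 1.19 and 0.78. Btg1 and Btg2, which hold cells in quiescence and promote mRNA decay, stood at 2859 CPM at day 50, against 1383 CPM at day 14, and 553 CPM at day 50, against 366 CPM at day 14, ratios of 1.05 and 0.59. Klf4 (1.15), Klf6 (0.68), Ier3 (1.07) and Csrnp1 (0.76) were higher as well. Without its 2 richest cells Nr4a1 stood at log2 ratio 0.55 and was not called.

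**Figure D3:**
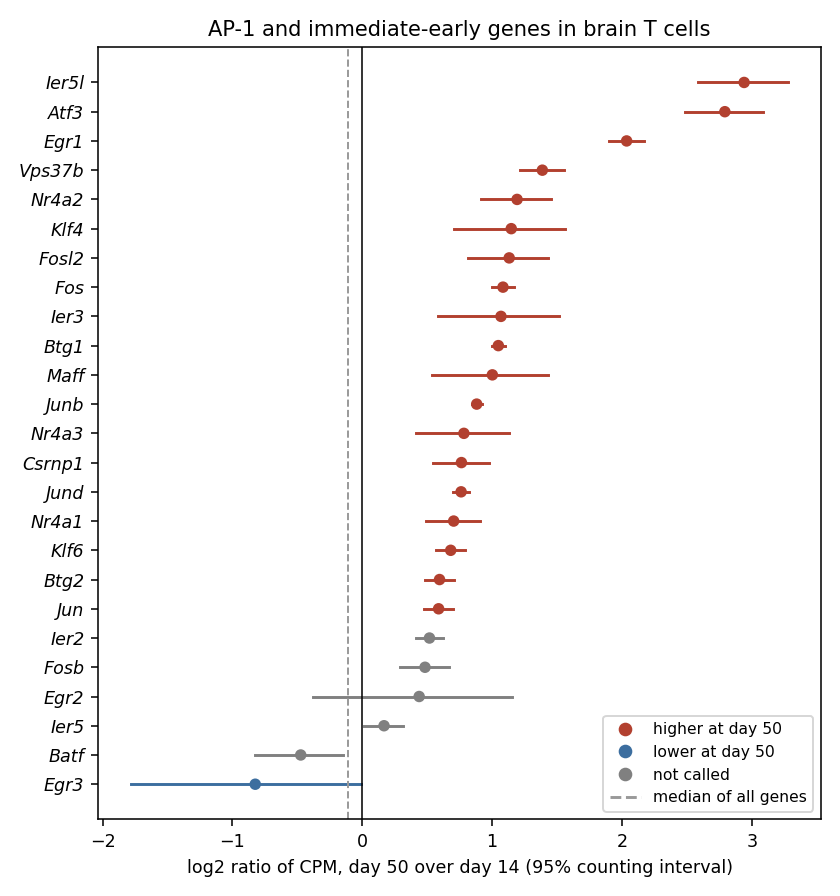
Log2 ratio of CPM, day 50 over day 14 (horizontal axis), of the 25 AP-1 and immediate-early genes compared, with 95% counting intervals as bars. Red points were called higher, the blue point lower and grey points were not called, and the dashed line is the all-gene median. Ier5l, Atf3 and Egr1 have the largest ratios, and Egr3 is the 1 gene called lower.

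Seen per cell, the shift was in how much transcript a cell held as well as in how many cells held it. At 2000 UMIs, Fos was found in 54.4% (95% interval 48 to 60.7) of day 50 cells and 44.7% (43.7 to 45.7) of day 14 cells, with 3.94 UMIs per positive cell at day 50 and 2.29 at day 14. Cells with 10 or more Fos UMIs made up 4.8% (2.5 to 8.23) of day 50 cells and 0.71% (0.549 to 0.905) of day 14 cells. Junb was near ubiquitous, in 96.8% of day 50 cells and 92.3% of day 14 cells, yet 10 or more UMIs were held by 52.4% (46 to 58.7) at day 50 and 19.1% (18.3 to 20) at day 14. Egr1 was in 30% (95% interval 24.4 to 36.1) of day 50 cells and 15% (14.3 to 15.8) of day 14 cells, with 3.36 UMIs per positive cell at day 50 and 1.4 at day 14. Atf3 was in 10.8% (95% interval 7.24 to 15.3) of day 50 cells and 2.09% (1.8 to 2.4) of day 14 cells. Over the 27 genes of both lists, the median cell held 8 of them at day 50 and 7 at day 14, and 28 UMIs of them at day 50 and 17 at day 14. At least 10 of these genes were detected in 31.2% of day 50 cells (25.5 to 37.3) and in 12.5% of day 14 cells (11.9 to 13.2). How evenly the transcript was spread differed between genes. At day 50, 2 cells held 2.37% of Junb, 2.52% of Btg1 and 12.4% of Fos UMIs. At 2000 UMIs, the 12 day 50 cells with 10 or more Fos UMIs held 41.8% of its UMIs, against 9.08% in the 65 such cells at day 14. For Egr1, 5 such day 50 cells held 29.8%, and 0 of 9150 day 14 cells were of this kind, which allows a share of up to 0.0403%. Among cells without a Cd69 UMI, Fos was found in 36.9% (26.6 to 48.1) at day 50 and 37.7% (36.1 to 39.3) at day 14, intervals that overlap.

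**Figure D4:**
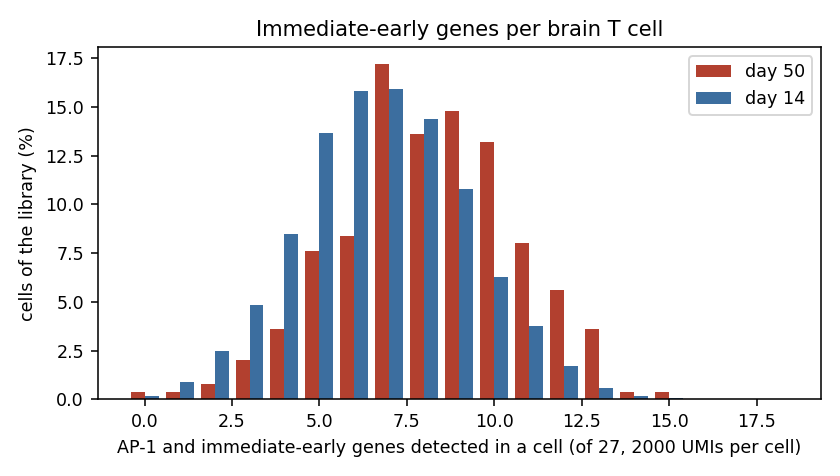
Number of AP-1 and immediate-early genes detected in a cell (horizontal axis, of 27 genes, at 2000 UMIs per cell) and the share of each library's cells with that number (vertical axis, %). Bars stand side by side, day 50 left and day 14 right. The day 50 cells are shifted to the right, with a median of 8 genes against 7.

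Heat shock genes did not show this pattern. Of 9 heat shock genes compared 0 were higher and 1 lower (median -0.10): Hsp90ab1, a cytosolic chaperone gene, had 975 CPM at day 50, against 1517 CPM at day 14 (log2 ratio -0.64, -0.72 to -0.55), which was not called once the all-gene median was subtracted (log2 ratio -0.53). The stress-inducible Hspa1a had 3 UMIs at day 50 (2.55 CPM) and 219 at day 14 (4.63 CPM), and Dnajb1 had a ratio of 0.21. The median cell had 2.31% mitochondrial UMIs at day 50 and 2.92% at day 14. Of 7 genes that respond to glucocorticoids 3 were higher and 2 lower. The clock gene Per1 had 99.3 CPM at day 50, against 47.6 CPM at day 14, and Klf9 had 22.9 CPM at day 50, against 9.22 CPM at day 14, both called higher, as was the kinase gene Sgk1 at 0.78, although not without its 2 richest cells (log2 ratio 0.53). Fkbp5 had 12.7 CPM at day 50, against 41.4 CPM at day 14 (log2 ratio -1.7, -2.54 to -0.97), Ddit4 stood at -1.27, and the glucocorticoid-induced leucine zipper gene Tsc22d3 at -0.07 was not called.

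Promoter sequences of this group were read for binding motifs of the factors known to switch such genes on. RefSeq windows of 300 bases (250 before and 50 from the start, GRCm38.p6) were held for 22 of the 27 members. The windows were searched on both strands for the cyclic AMP response element TGACGTCA, the AP-1 site TGANTCA, the CArG box of serum response factor and the kB motif of NF-kB. Of the 17 genes called higher that have a window, 5 (Fos, Fosl2, Maff, Nr4a1 and Ier3) hold a kB motif, 2 (Maff and Btg2) the response element, 1 (Csrnp1) an AP-1 site and 0 a CArG box. Of the 4 members not called that have a window, 1 (Fosb) holds a kB motif and 1 (Egr2) a CArG box. A kB motif lies in 5.14% of all 27025 genes with a window, the response element in 2.03%, an AP-1 site in 8.97% and a CArG box in 1.81%. Some genes have several windows. A match is only a match of letters, and no match says only that those letters are not in the window. These windows are shown because they carry the motifs counted here, with the motif in capitals: the kB motif in Fos (chr12:85473640-85473939, plus strand), Nr4a1 (chr15:101266596-101266895, plus strand) and Ier3 (chr17:35821463-35821762, plus strand), and the response element in Btg2 (chr1:134079106-134079405, minus strand).
Fos: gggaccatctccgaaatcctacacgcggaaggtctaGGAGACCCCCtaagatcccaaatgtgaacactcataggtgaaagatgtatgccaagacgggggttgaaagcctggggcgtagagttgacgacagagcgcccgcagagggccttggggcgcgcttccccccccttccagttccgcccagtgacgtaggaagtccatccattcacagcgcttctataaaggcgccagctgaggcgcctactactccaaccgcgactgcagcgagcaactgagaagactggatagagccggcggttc
Nr4a1: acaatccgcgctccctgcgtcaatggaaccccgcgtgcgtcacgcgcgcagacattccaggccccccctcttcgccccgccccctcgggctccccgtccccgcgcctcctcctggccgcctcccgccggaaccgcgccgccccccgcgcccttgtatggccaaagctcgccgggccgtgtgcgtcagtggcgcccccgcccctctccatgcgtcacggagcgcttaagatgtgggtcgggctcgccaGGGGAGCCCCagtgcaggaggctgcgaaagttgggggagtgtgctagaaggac
Ier3: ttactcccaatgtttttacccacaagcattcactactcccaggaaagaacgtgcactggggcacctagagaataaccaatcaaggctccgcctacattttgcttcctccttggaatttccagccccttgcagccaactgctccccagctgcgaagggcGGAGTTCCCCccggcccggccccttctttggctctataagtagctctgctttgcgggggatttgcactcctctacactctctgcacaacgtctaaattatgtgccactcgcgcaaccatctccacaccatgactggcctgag
Btg2: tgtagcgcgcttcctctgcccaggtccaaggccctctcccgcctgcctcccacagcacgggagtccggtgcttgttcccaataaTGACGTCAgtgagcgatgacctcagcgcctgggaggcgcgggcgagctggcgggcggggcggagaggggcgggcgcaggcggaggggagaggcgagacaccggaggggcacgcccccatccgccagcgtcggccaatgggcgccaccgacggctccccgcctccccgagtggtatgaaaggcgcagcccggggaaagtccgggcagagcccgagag
The motif begins 214 bases before the start in Fos, 3 in Nr4a1, 92 in Ier3 and 166 in Btg2.

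Genes that restrain signalling were mostly not called, and those that were called were higher. Of 17 feedback and mRNA decay genes compared 4 were higher and 0 lower (median 0.45). They were 3 dual-specificity phosphatases, which switch off MAP kinases, and the IκB family gene Nfkbid. Dusp6 had 52.6 CPM at day 50, against 18.7 CPM at day 14 (log2 ratio 1.49, 1.1 to 1.87). Dusp1 had 509 CPM at day 50, against 295 CPM at day 14 (log2 ratio 0.78, 0.66 to 0.9) and was found in 50.8% of day 50 cells and 39% of day 14 cells. Dusp4 stood at 1.25 and Nfkbid at 0.85, and Dusp4 was not called with cells thinned before summing (log2 ratio 0.84). The NF-kB inhibitors Tnfaip3 (0.45) and Nfkbia (0.16), the mRNA decay gene Zfp36 (0.24) and the cytokine feedback genes Socs1 (0.54) and Socs3 (0.3) were not called.

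Effector cytokines did not move as a group. Interleukin 17A and interleukin 2 transcripts and the TNF family ligands CD30L and RANKL were higher at day 50, while transcripts of interleukins 22 and 17F and of GM-CSF were lower and interferon-gamma was not called. Of the 15 cytokine genes listed, 11 compared, 4 were higher and 3 lower (median log2 ratio -0.03). Without the 2 richest cells per gene 1 was higher and 3 were lower (median -0.26), and with cycling cells left out 2 were higher. Il17a (chr1:20730905-20734496) had 503 CPM at day 50, against 182 CPM at day 14 (log2 ratio 1.46, 1.34 to 1.59). At 2000 UMIs the cells with an Il17a UMI were 10% (95% interval 6.58 to 14.4) of day 50 cells and 6.77% (6.26 to 7.3) of day 14 cells, intervals that overlap in part, and they held 7.96 UMIs per positive cell at day 50 and 5.03 at day 14. In all, 6 day 50 cells with 10 or more UMIs carried 71.9% of the thinned Il17a UMIs, and 86 such day 14 cells carried 51.2%. The Il17a level at day 50 thus rested on few cells with much transcript. Markers of gamma-delta T cells, which can also make interleukin 17, summed to 13.6 CPM in 9 of 348 cells at day 50 and 8.93 CPM in 213 of 10313 cells at day 14, and their part in the Il17a values was not tested.

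Il22, which acts on epithelia and other tissue cells, had 5.09 CPM at day 50, against 86.1 CPM at day 14 (log2 ratio -4.08, -5.53 to -2.96) on 6 UMIs at day 50, and Il17f had 2.55 CPM at day 50, against 18.1 CPM at day 14 (log2 ratio -2.83, -5.11 to -1.28) on 3 UMIs. At day 14, 2 cells held 62.1% of the Il17f UMIs. Csf2, which encodes GM-CSF, the cytokine that activates myeloid cells in EAE, had 29.7 CPM at day 50, against 47.1 CPM at day 14 (log2 ratio -0.67, -1.19 to -0.19), and its cells were 2.4% (95% interval 0.886 to 5.15) of day 50 cells and 3.39% (3.03 to 3.78) of day 14 cells. The Csf2 call ended when the all-gene median was subtracted (log2 ratio -0.55). Ifng had 291 CPM at day 50, against 414 CPM at day 14 (log2 ratio -0.51, -0.67 to -0.35), which is not called, and was found in 32% (95% interval 26.3 to 38.2) of day 50 cells and 28.1% (27.2 to 29.1) of day 14 cells, intervals that overlap. The positive cells held 1.88 UMIs per positive cell at day 50 and 2.67 at day 14, and 0 of 250 day 50 cells, against 69 of 9150 day 14 cells, held 10 or more UMIs. A count of 0 of 250 cells allows a share of up to 1.46% by the exact binomial interval. Il2, the T cell growth factor, had 74.7 CPM at day 50, against 37.5 CPM at day 14 (log2 ratio 0.99, 0.67 to 1.3), but 2 cells held 76.1% of its day 50 UMIs and without them the ratio was -0.60. Tnfsf11 (RANKL) had 106 CPM at day 50, against 65 CPM at day 14 (log2 ratio 0.71, 0.44 to 0.97) and Tnfsf8 (CD30L) 154 CPM at day 50, against 101 CPM at day 14 (log2 ratio 0.6, 0.38 to 0.82), and without their 2 richest cells they stood at log2 ratio 0.38 and log2 ratio 0.3 and were not called. Tnf (0.36), Lta (-0.03) and Ltb (-0.05) were not called, and Il21, Il10, Il3 and Spp1 were under the floor, with 11, 3, 0 and 9 UMIs at day 50.

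**Figure D5:**
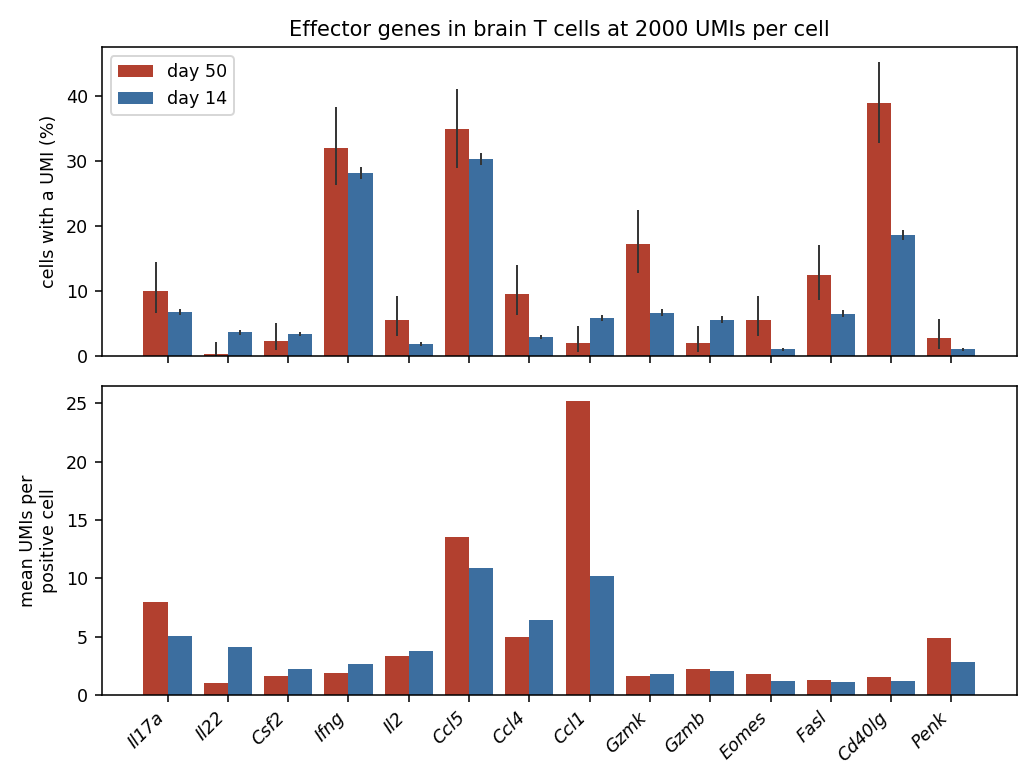
Effector genes in brain T cells thinned to 2000 UMIs, day 50 bars left and day 14 bars right for each gene. The upper panel gives the share of cells with a UMI (%, exact 95% intervals) and the lower panel the mean UMIs per positive cell. Ifng is in 32% and 28.1% of cells with 1.88 and 2.67 UMIs each, and Gzmk is in 17.2% and 6.7%.

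Which cytokines sat in the same cell was read at equal depth. Among Il17a-positive cells, those with the membrane channel gene Tmem176b, known from Th17 cells, were 16 of 25 at day 50 (64%, 42.5 to 82) and 216 of 619 at day 14 (34.9%, 31.1 to 38.8). Those that also held Ifng were 1 of 25 at day 50 (4.0%, 0.101 to 20.4) and 123 of 619 at day 14 (19.9%, 16.8 to 23.2). These intervals overlap, while that of the difference, -15.9 points (-20.5 to -0.0486, day 50 minus day 14), narrowly excludes 0. Among cells without an Il17a UMI, Ifng was in 35.1% (28.9 to 41.7) at day 50 and 28.7% (27.8 to 29.7) at day 14. Il22 was found with Il17a in 0 of 25 at day 50 (0%, 0 to 13.7) and 73 of 619 at day 14 (11.8%, 9.36 to 14.6), and Csf2 in 3 of 25 at day 50 (12%, 2.55 to 31.2) and 55 of 619 at day 14 (8.89%, 6.76 to 11.4). Cd69 was found in 14 of 25 at day 50 (56%, 34.9 to 75.6) and 420 of 619 at day 14 (67.9%, 64 to 71.5) Il17a-positive cells, and Cxcr6 in 12 of 25 at day 50 (48%, 27.8 to 68.7) and 307 of 619 at day 14 (49.6%, 45.6 to 53.6). Among Ifng-positive cells, those with the chemokine gene Ccl5 were 41 of 80 at day 50 (51.2%, 39.8 to 62.6) and 1073 of 2575 at day 14 (41.7%, 39.8 to 43.6). The Il17a-positive and Ifng-positive day 50 cells number 25 and 80, and the intervals of their shares are wide.

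Genes of Th17 identity went both ways. Of the 12 listed, 11 compared, 4 were higher and 2 lower (median log2 ratio -0.08). Ccr6, the chemokine receptor of Th17 cells, had 18.7 CPM at day 50, against 6.16 CPM at day 14 (log2 ratio 1.6, 0.9 to 2.23) on 22 UMIs at day 50, and was not called when cells were thinned before summing (log2 ratio 0.65). Maf, a factor that supports interleukin 10 and 17 programmes, had 204 CPM at day 50, against 98.8 CPM at day 14 (log2 ratio 1.04, 0.85 to 1.23) and was in 24.4% (95% interval 19.2 to 30.2) of day 50 cells and 16.2% (15.4 to 17) of day 14 cells. Tmem176a and Tmem176b were higher, at 0.89 and 0.68, and the second was not called without its 2 richest cells (log2 ratio 0.56). The receptor subunit gene Il17re had 11 CPM at day 50, against 28.3 CPM at day 14 (log2 ratio -1.36, -2.27 to -0.58), and the leukotriene receptor gene Ltb4r1 had 56.9 CPM at day 50, against 99.9 CPM at day 14 (log2 ratio -0.81, -1.18 to -0.46), in 6.0% of day 50 cells and 15.5% of day 14 cells. Rora (-0.46), Ahr (0.72) and the interleukin 1 receptor gene Il1r1 (-0.52) were not called, and Il23r had 1 UMI at day 50.

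Genes of Th1 identity gave 1 call. Of the 11 listed, 9 compared, 0 were higher and 1 lower (median log2 ratio -0.18). The gene lower was Il18rap, the second chain of the interleukin 18 receptor, with 39.9 CPM at day 50, against 78.9 CPM at day 14 (log2 ratio -0.98, -1.43 to -0.57). The lineage factor Tbx21 had 12.7 CPM at day 50, against 14.9 CPM at day 14 (log2 ratio -0.23, -1.07 to 0.5), and Cxcr3 (0.16), Stat4 (0.33) and Il12rb2 (-0.5) were not called. Of the 10 genes tied to follicular helper cells, 4 compared, 1 was higher and 1 lower (median log2 ratio 0.36). Izumo1r (folate receptor 4) had 57.7 CPM at day 50, against 34.2 CPM at day 14 (log2 ratio 0.76, 0.38 to 1.11) and the receptor gene Slamf6 30.6 CPM at day 50, against 59.5 CPM at day 14 (log2 ratio -0.96, -1.48 to -0.49), while Bcl6, their lineage factor, at 12.7 CPM at day 50, against 8.19 CPM at day 14 (log2 ratio 0.64, -0.21 to 1.38) was not called. Of the 8 genes shared with regulatory T cells, 5 compared, 1 was higher and 2 lower (median log2 ratio -0.3). Ikzf2 (Helios) had 50.1 CPM at day 50, against 20.5 CPM at day 14 (log2 ratio 1.29, 0.89 to 1.67), Il2ra, the high-affinity interleukin 2 receptor chain, had 11 CPM at day 50, against 28.9 CPM at day 14 (log2 ratio -1.39, -2.3 to -0.61), Nrp1 stood at -0.59, and Ctla4 at 301 CPM at day 50, against 205 CPM at day 14 (log2 ratio 0.56, 0.4 to 0.71) fell short of 1.5-fold. With cells thinned before summing, Slamf6 (log2 ratio -0.47) and Il2ra (log2 ratio -1.05) were not called, nor was Nrp1 once the all-gene median was subtracted (log2 ratio -0.48).

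Transcripts of memory and killer type cells differed in both directions. Eomes, a T-box factor of memory and cytotoxic lymphocytes, and the granzyme gene Gzmk were higher at day 50, while the effector granzyme genes Gzma and Gzmb were lower. Eomes (chr9:118478186-118486132) had 46.7 CPM at day 50, against 6.43 CPM at day 14 (log2 ratio 2.86, 2.42 to 3.28) and was found in 5.6% (95% interval 3.1 to 9.22) of day 50 cells and 1.05% (0.851 to 1.28) of day 14 cells. Gzmk (chr13:113171630-113180965) had 118 CPM at day 50, against 56.5 CPM at day 14 (log2 ratio 1.06, 0.81 to 1.31), in 17.2% (95% interval 12.7 to 22.5) of day 50 cells and 6.7% (6.2 to 7.23) of day 14 cells. The cells holding Gzmk that also held Eomes were 12 of 43 at day 50 (27.9%, 15.3 to 43.7) and 61 of 613 at day 14 (9.95%, 7.7 to 12.6), and Eomes-positive cells with Ccl5 were 13 of 14 at day 50 (92.9%, 66.1 to 99.8) and 83 of 96 at day 14 (86.5%, 78 to 92.6). Gzmb had 13.6 CPM at day 50, against 57.9 CPM at day 14 (log2 ratio -2.09, -2.9 to -1.39) and Gzma 5.94 CPM at day 50, against 77.8 CPM at day 14 (log2 ratio -3.71, -5.03 to -2.67), on 16 and 7 UMIs at day 50, of which 2 cells held 62.5% and all. Of the 13 cytotoxic genes listed, 10 compared, 2 were higher and 5 lower (median log2 ratio -0.53). The death ligand gene Fasl had 75.6 CPM at day 50, against 34.9 CPM at day 14 (log2 ratio 1.11, 0.79 to 1.42), and the NK-type receptor genes Klrd1 (-0.96), Klrk1 (-0.98) and Klrc1 (-0.7) were lower. Nkg7, a granule membrane gene, had 512 CPM at day 50, against 659 CPM at day 14 (log2 ratio -0.36, -0.48 to -0.25) and was not called. NK cell markers summed to 11 CPM at day 50 and 11.8 CPM at day 14, with Ncr1 at 0 on both days.

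Of the 7 chemokine ligand genes listed, 6 compared, 2 were higher and 1 lower (median log2 ratio 0.39). Ccl4, an inflammatory chemokine gene, had 266 CPM at day 50, against 108 CPM at day 14 (log2 ratio 1.31, 1.14 to 1.47), in 9.6% (95% interval 6.25 to 13.9) of day 50 cells and 2.92% (2.58 to 3.28) of day 14 cells. Ccl5, another inflammatory chemokine gene, had 2336 CPM at day 50, against 1463 CPM at day 14 (log2 ratio 0.67, 0.62 to 0.73), and cells with 10 or more of its UMIs were 14.4% (10.3 to 19.4) at day 50 and 8.61% (8.04 to 9.21) at day 14. The Ccl5 call ended without its 2 richest cells (log2 ratio 0.44). Ccl1, a CCR8 ligand, was lower in sum at 231 CPM at day 50, against 383 CPM at day 14 (log2 ratio -0.73, -0.91 to -0.56), and 2 cells held 98.2% of its day 50 UMIs. With cells thinned before summing Ccl1 was not called (log2 ratio -0.24). Xcl1, a ligand for dendritic cells, had a ratio of 0.57 and was not called, yet was found in 10.4% (95% interval 6.91 to 14.9) of day 50 cells and 1.44% (1.21 to 1.71) of day 14 cells, with 2.12 UMIs per positive cell at day 50 and 7.18 at day 14. Of the 12 receptor genes, 7 compared, 3 were higher and 0 lower (median log2 ratio 0.25). Ccr7, the receptor for lymph node entry, had 47.5 CPM at day 50, against 18 CPM at day 14 (log2 ratio 1.4, 0.99 to 1.79), in 5.2% of day 50 cells and 3.05% of day 14 cells. Ccr8 lay under the floor, with 14.4 CPM at day 50, against 3.91 CPM at day 14 (log2 ratio 1.88, 1.07 to 2.6) on 17 UMIs at day 50, and Ccr2 (-0.22), Cxcr3 (0.16) and Cxcr4 (0.25) were not called.

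Residency genes were not called or higher, and the 3 with antibodies in the panel were not called. Of the 19 listed, 14 compared, 5 were higher and 0 lower (median log2 ratio 0.56). The number higher was 8 once the all-gene median was subtracted and 2 without the 2 richest cells per gene. Cd69, which opposes exit from tissue, had 737 CPM at day 50, against 666 CPM at day 14 (log2 ratio 0.15, 0.05 to 0.24) and was in 66.4% (95% interval 60.2 to 72.2) of day 50 cells and 61.2% (60.2 to 62.2) of day 14 cells. Cxcr6, a receptor that retains T cells, had 327 CPM at day 50, against 346 CPM at day 14 (log2 ratio -0.08, -0.23 to 0.06), and P2rx7, an ATP-gated channel gene, had 28.9 CPM at day 50, against 28.2 CPM at day 14 (log2 ratio 0.03, -0.5 to 0.52). Higher were Itga1 (chr13:114958079-115101964), a collagen-binding integrin chain, with 17 CPM at day 50, against 6.01 CPM at day 14 (log2 ratio 1.5, 0.77 to 2.15) on 20 UMIs, the G protein regulators Rgs1 (1149 CPM at day 50, against 665 CPM at day 14) and Rgs2 (311 CPM at day 50, against 163 CPM at day 14), Chn2 and Nr4a1. Rgs1 was in 68% (95% interval 61.8 to 73.7) of day 50 cells and 52.9% (51.9 to 53.9) of day 14 cells and Rgs2 in 32.8% (95% interval 27 to 39) of day 50 cells and 22.9% (22 to 23.8) of day 14 cells. Itgae, the CD103 chain, had 1 UMI at day 50 and 93 at day 14, and Zfp683 (Hobit) had 4 at day 50. Cd69-positive cells that also held Fos were 105 of 166 at day 50 (63.3%, 55.4 to 70.6) and 2750 of 5600 at day 14 (49.1%, 47.8 to 50.4).

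Egress and homing genes were mostly not called. Of the 10 listed, 10 compared, 1 was higher and 1 lower (median log2 ratio -0.2). S1pr1, the exit receptor, had 90.8 CPM at day 50, against 80 CPM at day 14 (log2 ratio 0.18, -0.11 to 0.46), and Klf2, the factor that drives it, had 408 CPM at day 50, against 317 CPM at day 14 (log2 ratio 0.36, 0.23 to 0.49). Lef1, a factor of naive and early memory cells, had 51.8 CPM at day 50, against 103 CPM at day 14 (log2 ratio -0.99, -1.38 to -0.62), in 8.8% (95% interval 5.6 to 13) of day 50 cells and 18.8% (18 to 19.6) of day 14 cells. Tcf7 (-0.26) and Il7r (-0.4) were not called. Of the 11 integrin genes, 8 compared, 1 was higher and 1 lower (median log2 ratio -0.17). The gene lower was Itgb3, with 5.94 CPM at day 50, against 14.5 CPM at day 14 (log2 ratio -1.29, -2.61 to -0.24) on 7 UMIs at day 50, which was not called with cells thinned before summing (log2 ratio -0.53), and Itga4, a chain used for entry into the central nervous system, stood at -0.05 and was not called.

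The surface proteins were read with DNA-tagged antibodies in the same droplets, and the antibody counts were much lower at day 50. The day 50 cells held 4916 antibody UMIs, a median of 7 per cell, and the day 14 cells 398618, a median of 26, while 26 of 348 and 1 of 10313 cells held none. Levels were therefore not compared, and the make-up of the counts is given instead. CD69 took 30.6% of antibody UMIs at day 50 (29.3 to 31.9) and 21.4% at day 14 (21.2 to 21.5), CXCR6 50.3% and 58.2%, and P2X7 19.2% and 20.4%. CXCR6 antibody counts were higher in cells with its transcript on both days: cells with and without a Cxcr6 UMI had medians of 8 and 1 antibody UMIs at day 50 and of 22 and 6 at day 14. For P2X7 the medians were 3 with and 1 without a P2rx7 UMI at day 50, and 11 and 4 at day 14. For CD69 they were 2 and 1 at day 50, and 4 and 3 at day 14. These splits used cells that were not thinned, so a cell with a UMI may be a deeper one. The part of depth in them was not tested. The features carry a second name that differs for the CXCR6 and P2X7 antibodies, and the identifiers were used because they match the proteins the labels name.

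Lineage and memory factors gave calls in both directions. Of the 15 listed, 14 compared, 4 were higher and 2 lower (median log2 ratio -0.13). Tox had 36.5 CPM at day 50, against 18.9 CPM at day 14 (log2 ratio 0.95, 0.48 to 1.39) and the Ikaros family gene Ikzf3 (Aiolos) 43.3 CPM at day 50, against 23.5 CPM at day 14 (log2 ratio 0.88, 0.45 to 1.29), besides Eomes and Ikzf2. The 2 lower were Lef1 and Zeb2, a factor of terminal effector cells, with 17 CPM at day 50, against 26.4 CPM at day 14 (log2 ratio -0.63, -1.35 to 0.00) on 20 UMIs at day 50. The Zeb2 interval reached nearly to 0, and its call ended without the antigen-presenting barcode, with Scrublet calls left out, with at most 5% mitochondrial UMIs, with cells thinned before summing and with the all-gene median subtracted, each of which left 1 gene lower. Of the 11 inhibitory receptor genes, 9 compared, 2 were higher and 3 lower (median log2 ratio -0.18). Those lower were Cd160, with 10.2 CPM at day 50, against 55.7 CPM at day 14 (log2 ratio -2.45, -3.41 to -1.64), Pdcd1 (PD-1), with 17 CPM at day 50, against 29.9 CPM at day 14 (log2 ratio -0.82, -1.53 to -0.18), and Havcr2 (TIM-3), with 7.64 CPM at day 50, against 18 CPM at day 14 (log2 ratio -1.24, -2.37 to -0.31). Those higher were Entpd1 and Nt5e, the enzymes that turn ATP into adenosine, at 16.1 CPM at day 50, against 9.54 CPM at day 14 (log2 ratio 0.76, 0.01 to 1.42) and 33.1 CPM at day 50, against 19.7 CPM at day 14 (log2 ratio 0.75, 0.25 to 1.21), neither of them called without its 2 richest cells (log2 ratio 0.34 and log2 ratio 0.48). Thinned before summing, Pdcd1 stood at log2 ratio -0.66 and Havcr2 at log2 ratio -1.35, and neither was called. Lag3 (-0.18) and Btla (0.55) were not called.

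The costimulation genes called higher encode surface ligands. Of the 12 listed, 12 compared, 3 were higher and 0 lower (median log2 ratio 0.12). Cd40lg (chrX:57212143-57224042), through which T cells license antigen-presenting cells, had 278 CPM at day 50, against 105 CPM at day 14 (log2 ratio 1.41, 1.24 to 1.57). It was in 38.8% (95% interval 32.7 to 45.1) of day 50 cells and 18.6% (17.8 to 19.4) of day 14 cells, with 1.52 UMIs per positive cell at day 50 and 1.2 at day 14. Cd200 had 58.6 CPM at day 50, against 25 CPM at day 14 (log2 ratio 1.23, 0.86 to 1.58), and Tnfsf8 is given above. The receptor genes Cd28 (0.09), Icos (-0.15), Tnfrsf4 (0.05) and Cd27 (0.53) were not called. Of the 15 cytokine receptor genes, 11 compared, 0 were higher and 2 lower (median log2 ratio -0.18). They were Il2ra and the decoy receptor gene Il1r2, which had 17 CPM at day 50, against 51.2 CPM at day 14 (log2 ratio -1.59, -2.31 to -0.96). Among the 14 genes of the T cell receptor complex and its kinases 0 were higher and 0 lower (median -0.02), with Cd3e at 0.42, Trac at 0.19 and Cd4 at -0.36.

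Most genes of G2 and mitosis were called lower at day 50, and most S phase genes were not called. Of the 16 genes of G2 and mitosis, 12 compared, 1 was higher and 8 lower (median log2 ratio -1.05). That median depended on few cells and on the floor: it was -2.48 without the top 2% of barcodes by UMIs, -2.47 without the 2 richest cells per gene and -0.43 at a floor of 50 CPM, where 2 were lower. Mki67, the marker of cycling cells, had 9.34 CPM at day 50, against 30.8 CPM at day 14 (log2 ratio -1.72, -2.73 to -0.88) on 11 UMIs, 2 cells holding 72.7% of them. Stmn1, a microtubule regulator, had 49.2 CPM at day 50, against 148 CPM at day 14 (log2 ratio -1.59, -1.99 to -1.21), and Cenpa, a centromere histone, 64.5 CPM at day 50, against 109.8 CPM at day 14 (log2 ratio -0.77, -1.11 to -0.44). Ccnb2 (cyclin B2) had 3 UMIs at day 50, with 2.55 CPM at day 50, against 25.8 CPM at day 14 (log2 ratio -3.34, -5.62 to -1.79), and Birc5 (survivin) had 24.6 CPM at day 50, against 56.6 CPM at day 14 (log2 ratio -1.2, -1.78 to -0.67). Ube2c, a mitotic ubiquitin enzyme, was the gene higher, and 2 cells held 97.9% of its day 50 UMIs. Of the 16 S phase genes, 12 compared, 0 were higher and 3 lower (median log2 ratio -0.48): Rrm2 at -1.68, Mcm5 at -0.87 and Tyms at -0.65. Per cell, 2 or more of the 16 G2 and mitosis genes were found in 12% of day 50 cells (8.24 to 16.7) and in 22.6% of day 14 cells (21.8 to 23.5), but 2 or more of the S phase genes in 15.2% of day 50 cells (11 to 20.3) and in 17.5% of day 14 cells (16.8 to 18.3), intervals that overlap. Exactly 1 of the G2 and mitosis genes was found in 62% of day 50 and 56.8% of day 14 cells. A count of 2 or more is therefore no share of cycling cells. At least 3 of them were found in 2.8% of day 50 cells (1.13 to 5.68) and 7.06% of day 14 cells (6.54 to 7.6). Without thinning, and so with the depth difference between the days, cells with at least 2 of 8 cycling genes were 7 of 348 (2.01%) at day 50 and 885 of 10313 (8.58%) at day 14. With those cells left out, 377 genes were higher and 559 lower, and of the G2 and mitosis genes 0 were higher and 1 lower (median -0.37). Those cells were picked by genes of these same lists, so the loss of cycling gene calls follows from the filter. A gene left without a day 50 UMI was scored against the floor, which set Ccnb2, Birc5 and Tpx2 to a log2 ratio of 0.0. The median of -0.37 includes such values. With every cell thinned before summing, 3 of them were lower (median -0.62), and neither Mcm5 (log2 ratio -0.83) nor Tyms (log2 ratio -0.15) was called.

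Genes of the Ly6, S100 and galectin families were lower or not called. Of the 19 genes of the Ly6, S100, galectin and annexin families and related cytoskeletal genes, 19 compared, 0 were higher and 8 lower (median log2 ratio -0.58). Plac8 (chr5:100551589-100572253), expressed in effector T cells, had 79 CPM at day 50, against 433 CPM at day 14 (log2 ratio -2.46, -2.77 to -2.16), in 9.2% (95% interval 5.92 to 13.5) of day 50 cells and 27.3% (26.4 to 28.3) of day 14 cells. S100a4, a calcium-binding protein of migrating cells, had 1299.8 CPM at day 50, against 2689.5 CPM at day 14 (log2 ratio -1.05, -1.12 to -0.98), in 60.4% (95% interval 54 to 66.5) of day 50 cells and 78.2% (77.3 to 79) of day 14 cells. Ly6a (Sca-1) had 665 CPM at day 50, against 1220 CPM at day 14 (log2 ratio -0.88, -0.98 to -0.77) and was in 59.6% (95% interval 53.2 to 65.7) of day 50 cells and 79.5% (78.7 to 80.3) of day 14 cells. Lgals3 and Lgals1, which encode galectins, had 90 CPM at day 50, against 263 CPM at day 14, and 864 CPM at day 50, against 1609.8 CPM at day 14, ratios of -1.55 and -0.9. Ly6c2 (-1.07), Anxa1 (-0.83) and Ly6e (-0.69) were lower too, and S100a6 (-0.21), Vim (-0.58) and Ahnak (0.54) were not called. At least 10 of the 19 genes were found in 44% of day 50 cells (37.8 to 50.4) and in 64.6% of day 14 cells (63.6 to 65.5). Ly6 genes have near-identical neighbours, so their counts may be split between copies.

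Interferon genes did not move together. Of the type I interferon-stimulated genes, 16 were compared and 0 were higher or lower (median 0.04), with Isg15 at 138 CPM at day 50, against 106 CPM at day 14 (log2 ratio 0.39, 0.16 to 0.61) and Ifit3 at 0.34. Of the 14 interferon-gamma response genes, 14 compared, 1 was higher and 4 lower (median log2 ratio -0.3). The 3 lowest ratios were those of the membrane proteins that block virus entry: Ifitm3 had 98.5 CPM at day 50, against 369 CPM at day 14 (log2 ratio -1.9, -2.18 to -1.64), Ifitm2 59.4 CPM at day 50, against 218 CPM at day 14 (log2 ratio -1.87, -2.23 to -1.53) and Ifitm1 6.79 CPM at day 50, against 75.3 CPM at day 14 (log2 ratio -3.47, -4.68 to -2.49). Ifitm3 was in 12% (95% interval 8.24 to 16.7) of day 50 cells and 27.6% (26.7 to 28.5) of day 14 cells. The guanylate-binding protein gene Gbp2 was lower (-0.81) and the GTPase gene Iigp1 higher (0.74), each on few UMIs at day 50 (23 and 20), and without its 2 richest cells Iigp1 was not called (log2 ratio 0.47), while Gbp4 (-0.39), Igtp (-0.51) and Irf1 (0.11) were not called.

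Metabolic and survival genes gave few calls. Of the 16 glycolysis genes listed, 14 compared, 2 were higher and 2 lower (median log2 ratio -0.34). Hexokinase 2 (Hk2) had 67.9 CPM at day 50, against 37.7 CPM at day 14 (log2 ratio 0.85, 0.51 to 1.17) and the glucose transporter gene Slc2a1 21.2 CPM at day 50, against 13.5 CPM at day 14 (log2 ratio 0.66, 0.02 to 1.23), whereas the transporter gene Slc2a3 had 11 CPM at day 50, against 26.5 CPM at day 14 (log2 ratio -1.26, -2.18 to -0.48) and Pgk1 166 CPM at day 50, against 263 CPM at day 14 (log2 ratio -0.66, -0.87 to -0.46). With cells thinned before summing, Hk2 (log2 ratio 0.47), Slc2a1 (log2 ratio 0.22) and Slc2a3 (log2 ratio -0.62) were not called, and Pgk1 was not once the all-gene median was subtracted (log2 ratio -0.55). Of the 19 respiratory chain genes, 19 compared, 0 were higher and 2 lower (median log2 ratio -0.19): Cox4i1 and Cox5a, subunits of cytochrome oxidase, at -0.66 and -0.63. Of the 11 BCL2 family genes, 10 compared, 0 were higher and 2 lower (median log2 ratio -0.06): Bbc3 and Bak1, which promote cell death, at -0.61 and -0.71, with Bcl2 at 0.52 not called. Of the 10 TGF-beta pathway genes, 9 compared, 1 was higher and 1 lower (median log2 ratio -0.28): Skil, a repressor of the pathway, at 186 CPM at day 50, against 122 CPM at day 14 (log2 ratio 0.61, 0.41 to 0.8), and Smad3, its transducer, at 7.64 CPM at day 50, against 15 CPM at day 14 (log2 ratio -0.97, -2.1 to -0.04). Without its 2 richest cells Skil was not called (log2 ratio 0.51), nor was Smad3 once the all-gene median was subtracted (log2 ratio -0.86). Subtracting it also ended the calls of Cox4i1 (log2 ratio -0.55), Cox5a (log2 ratio -0.52) and Bbc3 (log2 ratio -0.5), and thinning before summing that of Bak1 (log2 ratio -0.38). Of the 8 repair mediators, 4 compared, 1 was higher and 1 lower (median log2 ratio -0.29). Penk, which encodes the opioid precursor proenkephalin, had 63.7 CPM at day 50, against 16.6 CPM at day 14 (log2 ratio 1.94, 1.57 to 2.28), but was in 2.8% (95% interval 1.13 to 5.68) of day 50 cells and 1.04% (0.841 to 1.27) of day 14 cells and had 50.7% of its day 50 UMIs in 2 cells. Areg (amphiregulin) had 23.8 CPM at day 50, against 37.7 CPM at day 14 (log2 ratio -0.67, -1.26 to -0.13) on 28 UMIs, a call that ended when the all-gene median was subtracted (log2 ratio -0.56).

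Some long noncoding RNAs were higher and the rest were not called. Of the 12 long noncoding RNAs listed, 11 compared, 5 were higher and 0 lower (median log2 ratio 0.49). The 5 were Malat1, Neat1 and the small nucleolar RNA hosts Snhg9, Snhg8 and Snhg12. Snhg9 had 75.6 CPM at day 50, against 21.3 CPM at day 14 (log2 ratio 1.83, 1.5 to 2.14), in 16.8% (95% interval 12.4 to 22) of day 50 cells and 3.87% (3.48 to 4.28) of day 14 cells. Snhg8 had 414 CPM at day 50, against 204 CPM at day 14 (log2 ratio 1.03, 0.89 to 1.16) and Snhg12 131 CPM at day 50, against 69.7 CPM at day 14 (log2 ratio 0.91, 0.66 to 1.14). The nuclear RNA Malat1 had 18663 CPM at day 50, against 11713 CPM at day 14 (log2 ratio 0.67, 0.65 to 0.69) and was in nearly every cell, and Neat1 had 83.2 CPM at day 50, against 55.3 CPM at day 14 (log2 ratio 0.59, 0.28 to 0.88). The calls of both ended in some of the alternatives, with Malat1 at log2 ratio 0.58 when cells were thinned before summing and Neat1 at log2 ratio 0.51 without its 2 richest cells. Gas5 (0.28), Snhg6 (0.34) and Snhg1 (0.49) were not called.

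Ranked by the difference in the share of cells with a UMI, the genes farthest up included several housekeeping genes. Tomm7, a subunit of the mitochondrial import pore, was in 72.4% of day 50 cells and 45.2% of day 14 cells, the class I gene H2-Q4 in 52.8% of day 50 cells and 30.1% of day 14 cells, the iron-sulphur protein gene Bola2 in 47.2% of day 50 cells and 27.2% of day 14 cells and the splicing factor gene Tra2b in 66.8% of day 50 cells and 48.6% of day 14 cells. Slc38a2, an amino acid transporter gene, was in 54.8% of day 50 cells and 36.7% of day 14 cells, and the ATP synthase genes Atp5md and Atp5k in 59.2% of day 50 cells and 41.4% of day 14 cells, and in 52% of day 50 cells and 34.5% of day 14 cells. Class I genes of the H2-Q group are near-identical, so the H2-Q4 count may be shared with them. Farthest down was Pycard, the inflammasome adaptor ASC, in 26.4% (95% interval 21 to 32.3) of day 50 cells and 47.7% (46.6 to 48.7) of day 14 cells (183 CPM at day 50, against 364 CPM at day 14). Ostf1 was in 39.2% of day 50 cells and 60.3% of day 14 cells, the actin regulators Gmfg and Arpc5 in 56.8% of day 50 cells and 75.2% of day 14 cells, and in 33.6% of day 50 cells and 51.1% of day 14 cells, and the sodium pump subunit gene Atp1b3 in 17.2% of day 50 cells and 34.3% of day 14 cells.

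The make-up of ribosomal protein transcripts differed. They took 36.5% of UMIs at day 50 and 34.1% at day 14. Of 80 compared, 12 were higher and 4 lower, with a median log2 ratio of -0.10 and a range of -0.87 to 1.21. Rps27 had 12273 CPM at day 50, against 5307 CPM at day 14 (log2 ratio 1.21), Rps29 10532 CPM at day 50, against 5197 CPM at day 14 (log2 ratio 1.02) and Rpl38 6812 CPM at day 50, against 3480.1 CPM at day 14 (log2 ratio 0.97). Rpl39 (0.97), Rps28 (1.01), Rpl37a (0.9) and Rpl41 (0.66) were higher as well. Rpl23a had 503 CPM at day 50, against 918 CPM at day 14 (log2 ratio -0.87), and Rps15, Rps25 and Rpl13a were also lower. Many pseudogene copies of these genes exist, so the counts may be split. Of 13 mitochondrial transcripts 3 were higher and 0 lower: mt-Atp8 at 177 CPM at day 50, against 49.2 CPM at day 14 (log2 ratio 1.85), mt-Nd4l (0.81) and mt-Nd3 (0.64).

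The same days in spinal cord, from other libraries, are set beside the brain values for some of these genes, with no test of the difference. There 351 of 6683 genes (5.25%) were higher and 1765 (26.4%) lower, with an all-gene median of -0.30. The counts that follow are over the 6260 genes compared in both tissues. Of the genes higher in brain, 159 were higher, 12 lower and 171 not called in spinal cord. Of the genes lower in brain, 331 were lower, 2 higher and 217 not called. Eomes had log2 ratios of 2.86 in brain and 3.49 in spinal cord, and Gzmk of 1.06 and 2.67. Atf3 stood at 2.79 in brain and 3.1 in spinal cord, Ier5l at 2.94 and 3.95, and Junb at 0.88 and 1.79. Fos, called higher in brain at 1.08, stood at -0.26 in spinal cord and was not called there. Il17a stood at 1.46 and 0.36, Cd40lg at 1.41 and 0.33, and Maf at 1.04 and -0.08, none of the 3 called in spinal cord. Gzmb was lower in brain (-2.09) and not called in spinal cord (-0.08), and Cxcr6 was not called in brain (-0.08) and lower in spinal cord (-0.9).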

How the data were processed

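Single-cell RNA and 3 antibody tags were measured by CITE-seq in droplets with a 3-prime kit. The authors deposited raw counts of UMIs for each barcode and feature, not normalized. The submitters' processing notes name Cell Ranger 6.1.1 and mm10. Barcodes with under 500 genes or over 10% mitochondrial UMIs were left out, counts were summed per library and scaled to CPM, and ratios carry exact conditional binomial 95% intervals (scipy 1.17.1). The method was tested on simulated data with counting error only. That setting gathers no transcript in few cells, so it could not check calls that rest on such cells. No count model across samples was run, since each day is 1 library: each p-value would compare libraries, not days. Cells were thinned to 2000 UMIs without replacement (numpy 2.4.6, seed 11), and shares carry Clopper-Pearson intervals. Doublets were not removed: Scrublet (scanpy 1.11.5) called 5 barcodes at day 50 and 0 at day 14, where it counts as failed.

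The members and the gene lists were chosen with earlier results of these data known. The genes named are the 12 highest and 12 lowest by difference in share among genes called the same way, up to 5 called members of each list and 28 focal genes; other list members are given to complete a list and were chosen after their values were seen. List members under a mean of 10 CPM are in no count of calls. A few genes of the lists and the ranking are not reported here. The library was scaled by its sum; alternatives were other floors, scalings, thresholds and cell filters. Antibody samples have no files of their own here, and were read from the antibody features of the RNA matrices.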

Additional observations from a re-analysis of the deposited data

Results flagged for a closer look

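Some genes were called in opposite directions between day 50 and day 14 in brain and in spinal cord; the difference between the tissues was not tested, since each arm is 1 library. There were 14 such genes, 4 of them in the gene lists. Il17f had a log2 ratio of -2.83 in brain, on 3 UMIs at day 50, and 2 brain cells held 62.1% of its day 14 UMIs. In spinal cord Il17f stood at 2.29, and 2 cells held 63.9% of its 108 day 50 UMIs. Ube2c stood at 0.69 in brain and -1.06 in spinal cord, with 97.9% of its brain day 50 UMIs in 2 cells. Areg stood at -0.67 in brain (23.8 CPM at day 50, against 37.7 CPM at day 14) and 1.27 in spinal cord (40.1 CPM at day 50, against 16.6 CPM at day 14). Neat1 stood at 0.59 in brain (83.2 CPM at day 50, against 55.3 CPM at day 14) and -0.72 in spinal cord (40.5 CPM at day 50, against 66.6 CPM at day 14), with no 2 cells holding over 6.12% of its UMIs in any of the 4 libraries.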

How the results depend on the processing

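In brain, 172 of the 388 higher calls and 158 of the 558 lower calls held under all 13 cell, scaling and floor alternatives. A gene that fell under a floor still counted as keeping its call, so the changes of floor could end no call. The 2-fold threshold, under which 130 were higher and 141 lower, is not among the 13. A mean of 50 CPM gave 151 higher and 156 lower, 10 UMIs over both libraries 660 higher, and leaving out the 2 richest cells per gene in each library 215 higher and 1114 lower. Subtracting the all-gene median gave 343 lower. Thinning every cell to 2000 UMIs before summing kept 529 of the 946 calls and changed the sign of 4. With a mean of 50 CPM the median of the genes shared with regulatory T cells was 0.13 and that of inhibitory receptors 0.56, from fewer genes; that of cytokine receptors was 0.17 without ribosomal protein genes in the sum. Without its 2 richest cells Il2 had a log2 ratio of -0.60. No paired analysis was possible because each day is 1 library and the labels pair no mice. Of 121 called genes named by the rule, 44 lost their call under at least 1 alternative, most often when cells were thinned before summing. Falling under a raised floor did not count as a loss. The day 50 library limits low genes, since 1 UMI there is 0.849 CPM.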

Other observations

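Genes outside the lists, chosen after their values were seen, also kept their call under all the cell and scaling alternatives. Those with a mean under 50 CPM, such as Rhob and Tff1, were not compared at that floor. Higher at day 50 was Rhob, a small GTPase gene, with 45.8 CPM at day 50, against 12.4 CPM at day 14 (log2 ratio 1.88, 1.45 to 2.29), in 10.8% of day 50 cells and 2.68% of day 14 cells. Rgcc, a cell cycle regulator, had 256 CPM at day 50, against 108 CPM at day 14 (log2 ratio 1.25, 1.08 to 1.42). Errfi1 and Spry1, feedback inhibitors of receptor tyrosine kinases, had 51.8 CPM at day 50, against 18.6 CPM at day 14, and 25.5 CPM at day 50, against 9.12 CPM at day 14, ratios of 1.47 and 1.48. The chromatin remodeller gene Chd3 had 152 CPM at day 50, against 57.2 CPM at day 14 (log2 ratio 1.41, 1.18 to 1.63) and was in 25.2% of day 50 cells and 10.4% of day 14 cells, and Odc1, which makes polyamines, had 595 CPM at day 50, against 309 CPM at day 14 (log2 ratio 0.94, 0.83 to 1.05). Rnaset2a, an RNase of the lysosome, was in 23.2% of day 50 cells and 9.69% of day 14 cells, and its near-identical copy Rnaset2b in 20.4% of day 50 cells and 7.77% of day 14 cells, so their counts may be split. Tmsb10, an actin-binding peptide gene in nearly every cell, had 10396 CPM at day 50, against 5183 CPM at day 14 (log2 ratio 1.0, 0.98 to 1.03). The linker histone gene Hist1h1c had 263 CPM at day 50, against 125 CPM at day 14 (log2 ratio 1.07, 0.91 to 1.24) and was in 34% of day 50 cells and 18.7% of day 14 cells.

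Lower at day 50 was Rbm3, an RNA-binding protein gene induced by cold, with 728 CPM at day 50, against 1410.4 CPM at day 14 (log2 ratio -0.95, -1.05 to -0.86), in 74% of day 50 cells and 86.8% of day 14 cells. The T cell surface gene Cd7 had 17 CPM at day 50, against 51.7 CPM at day 14 (log2 ratio -1.61, -2.32 to -0.98) and the adhesion receptor gene Cd48 197 CPM at day 50, against 332 CPM at day 14 (log2 ratio -0.75, -0.94 to -0.56). Mapkapk3, a kinase downstream of p38, had 65.4 CPM at day 50, against 148 CPM at day 14 (log2 ratio -1.17, -1.52 to -0.85). The calmodulin-binding gene Nrgn had 147 CPM at day 50, against 326 CPM at day 14 (log2 ratio -1.15, -1.37 to -0.93) and the trefoil factor gene Tff1 23.8 CPM at day 50, against 56.8 CPM at day 14 (log2 ratio -1.26, -1.85 to -0.72). The metallothionein gene Mt1 stood at -1.07 and the elongation factor gene Eef2 at -0.7. Serpinb6b, a protease inhibitor gene, was in 0.80% of day 50 cells and 9.8% of day 14 cells, and Qrfp, a neuropeptide gene, in 2.0% of day 50 cells and 8.37% of day 14 cells.

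Vegfa, under the floor for comparison, had 5.94 CPM at day 50, against 0.317 CPM at day 14 (log2 ratio 4.23, 2.69 to 5.61) on 7 UMIs at day 50. The ribosomal protein genes higher in brain had log2 ratios over the same days in spinal cord of 1.24 for Rps27, 0.99 for Rps29, 0.79 for Rpl38, 0.91 for Rps28 and 0.8 for Rpl39. The gene model Gm42418 had 2122 CPM at day 50, against 1259.5 CPM at day 14 in brain, where 2 cells held 26.3% of its day 50 UMIs. In spinal cord it had 1333 CPM at day 50, against 2622 CPM at day 14.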
